A study of Mus musculus with 6 samples.

Results

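Genes of axonal filaments and of neurons, 8 in all, were followed in mouse sciatic nerves with a Schwann cell deletion of the histone deacetylase genes Hdac1 and Hdac2. They were the neurofilament subunit genes Nefl, Nefm and Nefh, the related filament genes Ina and Prph, the tubulin gene Tubb3, the ubiquitin hydrolase gene Uchl1 and the transcription factor gene Isl1. A gene was included when a probe set of the Affymetrix Mouse Genome 430 2.0 array was annotated with its symbol alone, and its level was taken from the probe set with the highest mean over all arrays. This gave 8 genes with 15 probe sets, out of 18194 genes and 45101 probe sets.

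The double knockout group (dKO) held 3 nerve samples of DhhCre+ HDAC1-2 dKO pups, which the labels describe as having peripheral hypomyelination, and the control group held 3 samples of DhhCre– littermates. In both groups the pups were of mixed strain and on postnatal day 2, and the nerves had been freed of their perineurium, the outer sheath of a nerve bundle. Cre was driven by the desert hedgehog gene, which in peripheral nerve is expressed by the Schwann cell lineage, and the deletion is therefore aimed at the glia and not at the neurons. The alleles carried by the DhhCre– pups and the number of pups per sample are not stated in the labels. A p-value here therefore reflects only how far these 6 samples spread.

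Neurofilaments are the intermediate filaments of the axon. They assemble from a light, a medium and a heavy subunit with internexin or peripherin, and they set the calibre of large axons. In a nerve trunk the cell bodies of sensory and motor neurons lie outside the tissue, so that neuronal transcripts there come from the axons or from non-neuronal cells that express the same gene. In such a bulk sample fewer cells or axons of a type and less RNA in each cannot be told apart.

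Of the 8 genes, Uchl1 alone passed the test, and it rose 1.83-fold in dKO nerves. The 3 neurofilament subunits, Ina, Prph and Tubb3 did not pass. Isl1 lay under the low-value limit on all 6 arrays and was not tested. Values are log2 expression, and the limit was set at a log2 value of 4. A gene was tested when it reached the limit on at least 3 of the 6 arrays, as 7 of the 8 did. Changes are dKO minus control from limma fitted over 14550 genes, with a standard error (SE) and a Benjamini-Hochberg adjusted p over all of them, and a gene was called at an adjusted p under 0.05. Over all genes 22.0% were called, so 1 of 7 (14.3%) is a share near that background. The median change was 0.17 over the 7 genes, and 0.01 over all genes tested. The groups did not overlap for 1 of the 7 genes, against 40.9% of all genes (22.6% with dKO above, the direction of that gene).

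Pairs of dKO arrays had correlations over genes of 0.980 to 0.991, pairs of control arrays 0.9815 to 0.988, and mixed pairs 0.925 to 0.963. The deleted genes were lower on every dKO array, with a change of -1.55 (SE 0.13, adjusted p = 0.000271) for Hdac1 and -1.26 (SE 0.15, adjusted p = 0.00103) for Hdac2, or -0.71 with the Hdac2 probe sets averaged. No array was left out.

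**Figure D1:**
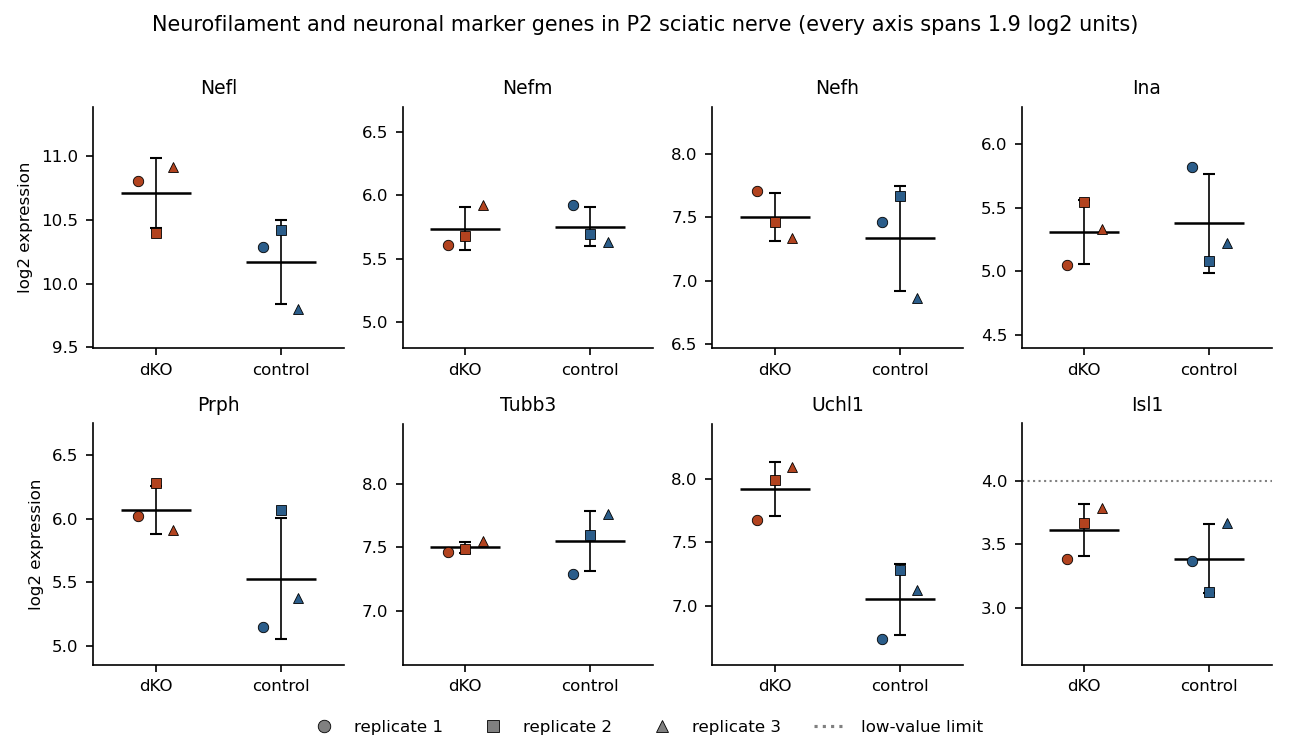
Log2 expression of the 8 genes on each array, with dKO at the left and control at the right of each panel; symbols are replicates, horizontal lines are group means and bars are SD (n = 3 each). For Uchl1 all dKO arrays lie above all control arrays, whereas the groups overlap in the other panels, and Isl1 stays under the dotted limit of 4.

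Nefl encodes the light subunit, the core on which the other neurofilament subunits assemble. It had 10.81, 10.40 and 10.92 on the 3 dKO arrays, against 10.29, 10.42 and 9.80 on the 3 control arrays. Control 3 was the lowest array, and dKO 2 lay just under control 2, so the groups overlapped. The mean was 10.71 ± 0.27 in dKO nerves and 10.17 ± 0.33 in control nerves (SD, n = 3 each). The change of 0.54 (SE 0.21) did not pass in limma, with an adjusted p of 0.111 and an unadjusted p of 0.0336. In linear terms it is a fold of 1.46, with a 95% confidence interval of 1.04 to 2.04 that is not adjusted for the number of genes. With this SE a change of 0.69 would have been needed for a call. The change was 0.36 without control 3 and 0.70 without dKO 2. The second Nefl probe set had 7.15, 6.66 and 7.36 in dKO and 6.66, 7.01 and 6.46 in control nerves. Its change was 0.35 (SE 0.23, adjusted p = 0.346 over all probe sets). On both probe sets dKO 2 was the lowest dKO array and control 3 the lowest control array.

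Nefm encodes the medium subunit, which has a long tail that projects from the filament. It had 5.61, 5.68 and 5.93 in dKO, against 5.93, 5.70 and 5.64 in control nerves. The highest value was the same on dKO 3 and control 1, and the groups covered nearly the same range. The change was -0.02 (SE 0.15, adjusted p = 0.954), with a 95% interval of -0.37 to 0.34. This is the narrowest interval of the 7 genes, and in linear terms it runs from 0.774-fold to 1.26-fold. Nefl and Nefm lie on chromosome 14 with no protein-coding gene between them in the RefSeq annotation.

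Nefh encodes the heavy subunit, whose tail is heavily phosphorylated in mature axons. It had 7.70, 7.47 and 7.34 in dKO, against 7.46, 7.67 and 6.87 in control nerves. Control 3 was again the lowest array, and the other 5 lay close together. The mean was 7.50 ± 0.19 in dKO and 7.33 ± 0.42 in control nerves (SD, n = 3 each), and the change of 0.17 (SE 0.22, adjusted p = 0.632) had an interval of -0.34 to 0.68. Without control 3 the change was -0.06. Control 3 was thus the lowest array for Nefl and Nefh and the lowest control array for Nefm. It was the highest of the 6 arrays for Tubb3 (7.76), and not the lowest control array for Ina, Prph, Uchl1 or Isl1.

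Since the 3 subunits assemble together, their log2 ratios within each array were compared between the groups. A ratio of 2 probe sets gives no true subunit proportion, and a difference in it between groups describes those probe sets. For Nefl itself the 2 probe sets had unlike changes of 0.54 and 0.35. The Nefl over Nefm ratio had 5.20, 4.72 and 4.995 on the dKO arrays and 4.37, 4.72 and 4.16 on the control arrays. Only dKO 2 and control 2 met, at the same value. The mean ratio differed by 0.56, with p = 0.2 in the exact two-sided permutation test and 0.3 after adjustment over the 3 pairs. The Nefl over Nefh ratio was higher on all 3 dKO arrays (3.11, 2.94 and 3.58) than on the control arrays (2.83, 2.75 and 2.93), a difference of 0.37 with an exact permutation p of 0.1, the smallest that 3 against 3 arrays allow, and 0.3 adjusted. The margin between dKO 2 and control 3 was small beside the spread within dKO. The Nefm over Nefh ratio differed by -0.19 (exact permutation p = 0.7). With 3 against 3 arrays none of these tests could reach a p under 0.05, so they do not show whether the subunits changed unequally.

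**Figure D2:**
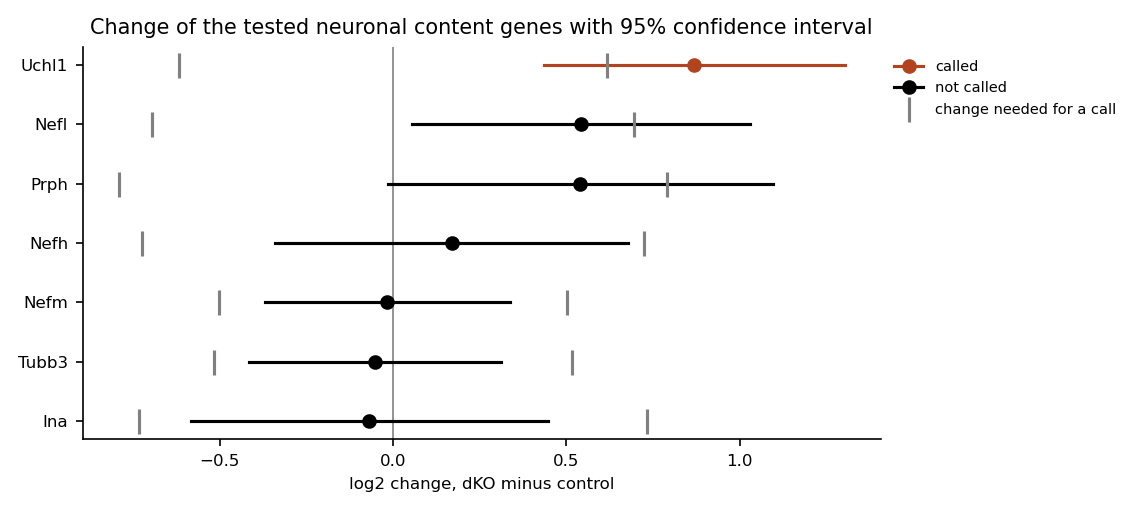
Log2 change (dKO minus control) of the 7 tested genes with the 95% confidence interval of the limma fit; grey ticks mark the size of change that each gene's SE would have needed for a call. The Uchl1 change of 0.87 lies beyond its tick at 0.62, and those of Nefl and Prph (0.54 each) lie inside theirs at 0.69 and 0.79.

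Ina encodes alpha-internexin, a filament protein of developing neurons that co-assembles with neurofilaments. It had 5.05, 5.55 and 5.33 in dKO, against 5.82, 5.08 and 5.23 in control nerves. Control 1 was the highest array and dKO 1 the lowest, and the groups overlapped. The change was -0.07 (SE 0.22, adjusted p = 0.857), with an interval of -0.58 to 0.45, and its sign turned without dKO 1 (0.06) or control 1 (0.15). Of its other 2 probe sets, 1 had a change of 0.08 (SE 0.21, adjusted p = 0.833) and 1 reached the limit on a single array and was not tested. With the 3 probe sets averaged the change was 0.11.

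Prph encodes peripherin, the filament protein of peripheral sensory, autonomic and motor neurons. It had 6.02, 6.28 and 5.91 in dKO, against 5.15, 6.07 and 5.37 in control nerves. Control 1 and control 3 were lower than every dKO array, whereas control 2 lay within the dKO range. The mean was 6.07 ± 0.19 in dKO and 5.53 ± 0.48 in control nerves (SD, n = 3 each). The change of 0.54 (SE 0.24, adjusted p = 0.156) did not pass. It passed without control 2, when it was 0.81 with an adjusted p of 0.0296, and it was 0.35 without control 1. The other 3 Prph probe sets have no accession in the annotation used here, and their changes were -0.22, -0.27 and 0.19 (adjusted p = 0.367, 0.429 and 0.533). Those with a change of -0.27 and 0.19 lay under the limit on 1 and 2 of the 6 arrays. With all 4 probe sets averaged the Prph change was 0.06.

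**Figure D3:**
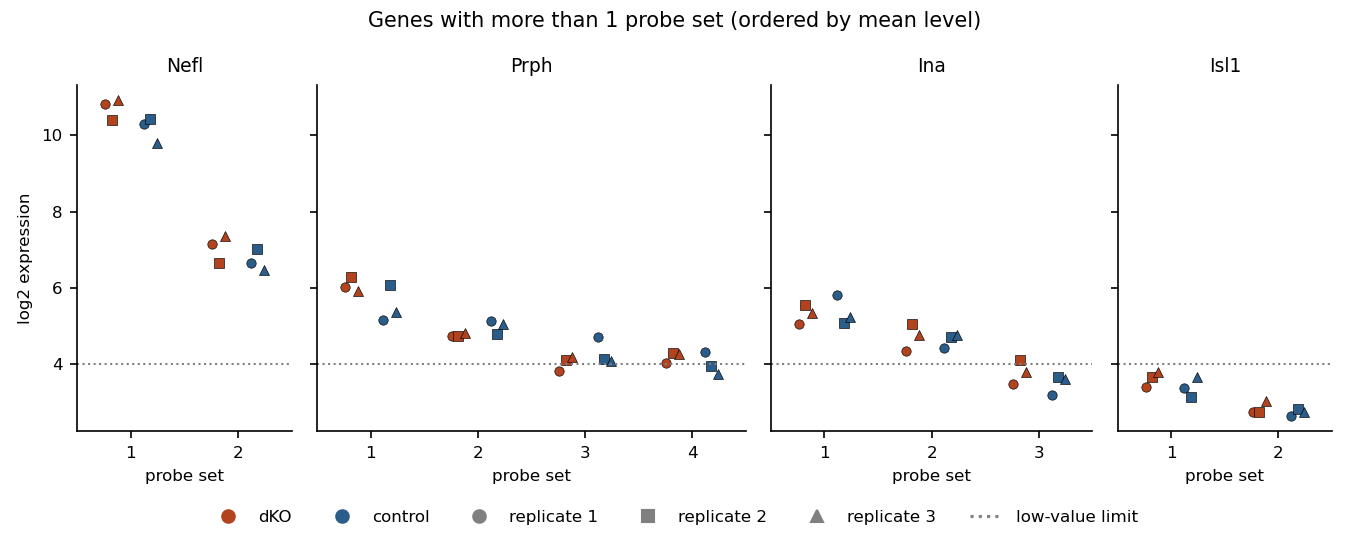
Log2 expression on each array for every probe set of the 4 genes that have more than 1, with dKO left of control at each probe set and the limit of 4 dotted. Both Nefl probe sets show the same lowest array in each group, the Prph probe sets differ in the order of their arrays, and both Isl1 probe sets lie under the limit.

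Over the 15 probe sets of the 8 genes, 12 reached the limit often enough to be tested and 1 was called, the single Uchl1 probe set. The background over all probe sets was 15.8%.

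Tubb3 encodes class III beta-tubulin, the tubulin isotype by which neurons and their axons are usually stained. It had 7.46, 7.49 and 7.55 in dKO, against 7.29, 7.59 and 7.76 in control nerves. The dKO arrays were nearly level and lay between the control arrays. The SD was 0.05 in dKO and 0.24 in control nerves. The change was -0.05 (SE 0.16, adjusted p = 0.850), and the interval ran from -0.41 to 0.31, or from 0.751-fold to 1.24-fold. It was 0.06 without control 3.

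Uchl1 encodes the ubiquitin hydrolase also known as PGP9.5, an abundant neuronal protein widely used to stain nerve fibres. It had 7.68, 7.99 and 8.09 in dKO, against 6.74, 7.28 and 7.13 in control nerves. All 3 dKO arrays lay above all 3 control arrays, with the gap between dKO 1 and control 2. The mean was 7.92 ± 0.22 in dKO and 7.05 ± 0.28 in control nerves (SD, n = 3 each). Uchl1 rose by 0.87 (SE 0.19, adjusted p = 0.0133), a 1.83-fold higher level with a 95% interval of 1.35 to 2.47. A larger absolute change was seen for 13.6% of all genes tested. The call was kept with each array left out in turn, with a change of 0.71 without control 1 to 0.99 without dKO 1, and it was closest to the threshold without dKO 2 (adjusted p = 0.0498).

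**Figure D4:**
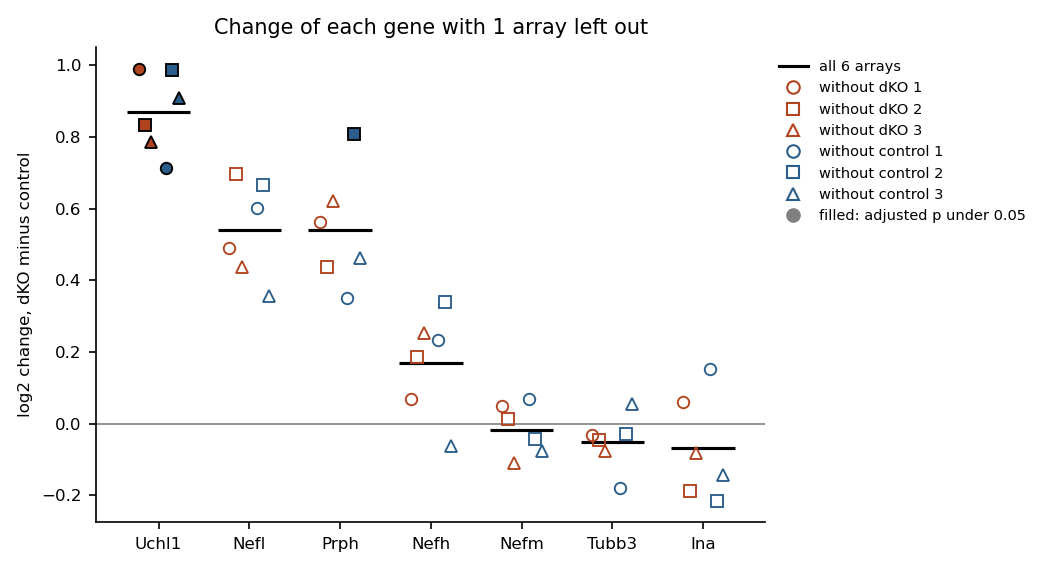
Log2 change (dKO minus control) of the 7 tested genes with all 6 arrays (black line) and with each array left out in turn (symbols, filled where the adjusted p was under 0.05). Uchl1 stays between 0.71 and 0.99 and is called each time, Prph is called only without control 2, and Nefm, Tubb3 and Ina fall on both sides of 0, as Nefh does without control 3.

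Promoter sequences were at hand for 5 of the 8 genes (Ina, Prph, Tubb3, Uchl1 and Isl1), from RefSeq in build GRCm38.p6. HDAC1 and HDAC2 are subunits of the corepressor complexes through which the factor REST silences neuronal genes at the RE1 element, so the 250 bases before the transcript start that the table uses were searched on both strands for TTCAGCACC and GGACAGCGC, the left and right parts of that element. Neither was found in the 5 genes, and they occur in 0.301% and 0.304% of the 32851 promoters in the table. Exact matches are thus rare in any promoter, and sequence outside the 250 bases was not searched. The absence of a match therefore does not show that a gene lacks an RE1 element. The GC box CCGCCC (32.7% of promoters), CCAAT (33.8%) and the TATA box TATAAA (12.4%) were searched in the same way, and none of these motifs overlapped another in the 5 genes. Uchl1, the gene that was called, and Tubb3, a gene with a narrow interval around no change, are shown as examples. Both run 5′ to 3′, with matches to any of the 5 motifs in capitals. Single genes do not allow a comparison of called with uncalled genes. The Uchl1 window is chr5:66675871-66676120 and the Tubb3 window chr8:123411303-123411552, both on the plus strand.
Uchl1: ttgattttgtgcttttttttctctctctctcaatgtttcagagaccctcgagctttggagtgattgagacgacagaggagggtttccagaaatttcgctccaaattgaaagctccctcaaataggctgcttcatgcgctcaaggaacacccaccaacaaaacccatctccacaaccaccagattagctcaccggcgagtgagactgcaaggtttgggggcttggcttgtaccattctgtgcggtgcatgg
Tubb3: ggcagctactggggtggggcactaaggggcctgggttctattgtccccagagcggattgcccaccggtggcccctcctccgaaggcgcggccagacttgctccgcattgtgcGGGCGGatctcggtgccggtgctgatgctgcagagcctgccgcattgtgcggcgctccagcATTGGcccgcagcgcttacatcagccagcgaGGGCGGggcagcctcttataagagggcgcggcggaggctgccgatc
Uchl1 had no match to any of the 5 motifs. Tubb3 had 2 GC boxes, which begin 138 and 46 bases before the start, and a CCAAT box read from the other strand at 77 bases. For Prph the table's transcript start lies inside the annotated span of the gene, so its window is not the sequence before the gene's outermost start. It had a TATA box at 31 bases and a GC box at 24, Ina had 2 GC boxes, and Isl1 had 2 CCAAT boxes. A match describes the letters only.

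The profile of Uchl1 over the 6 arrays was set against that of every other tested gene, each centred on its own mean. The smallest root mean square differences were those of Ly6e (0.0625), Kti12 (0.0665) and Dnah1 (0.0691), all in log2 units over 6 arrays. Ly6e, which encodes a lipid-anchored surface protein, had a change of 0.89 (SE 0.20, adjusted p = 0.0149). Kti12 had a change of 0.77 (SE 0.20, adjusted p = 0.0266), and Dnah1, an axonemal dynein heavy chain gene, had one of 0.88 (SE 0.18, adjusted p = 0.0108; 0.56 with its probe sets averaged). The Ly6e call was lost without dKO 2 (adjusted p = 0.0586) and that of Kti12 without dKO 2, dKO 3, control 1 or control 3 (adjusted p up to 0.0831).

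Isl1 encodes a LIM homeodomain factor of sensory and motor neuron nuclei. The probe set that stood for it had 3.39, 3.67 and 3.79 in dKO, against 3.37, 3.13 and 3.67 in control nerves, and the other had 2.74 to 3.03 in dKO and 2.65 to 2.82 in control nerves. Both probe sets were under the limit of 4 on all arrays, so no fold was taken. When genes under the limit were fitted as well, Isl1 had a difference of 0.23 with an adjusted p of 0.461.

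Genes related to the 8 by family or function were read from lists written from general knowledge, but with earlier results of these data known. A list's share of called genes is therefore a description and not a test of that list. Over all genes 12.6% were called higher and 9.38% lower, which is 1833 higher and 1365 lower, against 1603 higher and 1640 lower with each array centred on its median. Of 13 other tested intermediate filament genes 2 fell, with a median of -0.11. These were Nes, the nestin gene (-0.52, adjusted p = 0.0479), and Krt10 (-0.62, adjusted p = 0.0285). The Nes call was lost with any of the 6 arrays left out (adjusted p up to 0.141), and that of Krt10 without dKO 1, dKO 2, control 2 or control 3 (up to 0.1002). Vim, the vimentin gene of Schwann cells and fibroblasts, had a change of -0.05 (adjusted p = 0.816). Gfap, the glial filament gene, was under the limit throughout. Of 16 tubulin and tubulin folding genes, Tubb6 rose (0.67, adjusted p = 0.0168), and the median was 0.11. That call was lost without dKO 2, control 2 or control 3 (adjusted p up to 0.0677). Of 5 tested genes of other ubiquitin carboxyl-terminal hydrolases 0 were called by limma, with a median of 0.37, and 3 (Usp7, Usp14 and Uchl5, with changes of 0.52, 0.41 and 0.37) had an unadjusted p under 0.05. With probe sets averaged the changes of Usp7 and Usp14 were 0.14 and 0.13. Usp7 was called without dKO 2 (adjusted p = 0.0474), and 1 gene was called when limma's prior followed the intensity.

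Of 28 genes whose products bind or move along microtubules 7 rose and 8 fell (53.6%, against the 22.0% over all genes), with a median of -0.13. Crmp1 rose on all dKO arrays and was 10.4-fold higher with the 1 control value under the limit set to it. Stmn3, Dpysl3 and Map2, which act on microtubule stability, rose by 2.61, 2.57 and 2.03 (SE 0.41, 0.19 and 0.18). The largest falls were those of the kinesin genes Kif1a (-1.49, SE 0.19) and Kif3c (-1.31, SE 0.21), and without control 2 the number lower was 6. Of 17 genes of the axonal membrane skeleton and its linkers 3 rose, Gap43, Basp1 and Macf1 (3.05, 2.21 and 0.83). Another 3 fell, Nfasc, Sptan1 and Ank2 (-2.90, -0.57 and -0.54), with a median over the list of -0.21. Of the list 35.3% were called, against the 22.0% over all genes. Which cells of the nerve the RNA of this list came from was not tested. The number lower in this list was 1 with any control array left out and 2 without dKO 1 or dKO 2. Of 12 LIM factor and cofactor genes, Ldb2 rose (0.87, adjusted p = 0.0124), and Lmo1 (-1.96, adjusted p = 0.000219) and Lmx1b (-0.43, adjusted p = 0.0465) fell, with a median of -0.16. The Lmx1b call was lost with any of the 6 arrays left out (adjusted p up to 0.143).

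**Figure D5:**
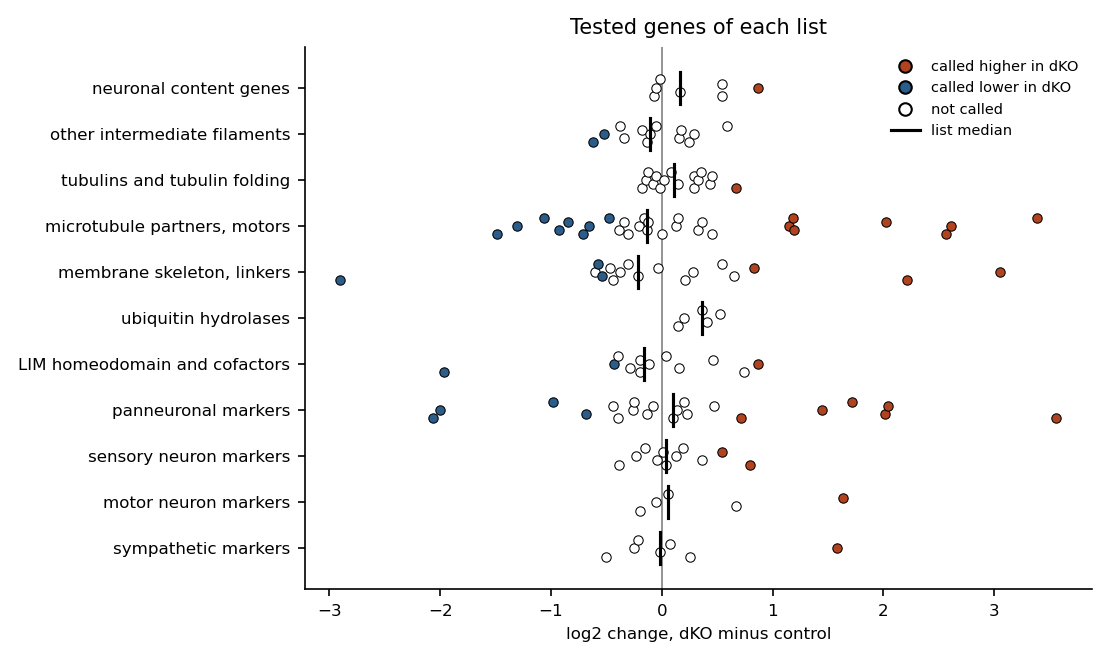
Log2 change (dKO minus control) of each tested gene, with 1 row per list; circles are genes, filled where called, and black bars are list medians. The 7 neuronal content genes lie between -0.07 and 0.87, whereas genes of the microtubule partner and panneuronal lists reach beyond 3 and below -1.

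Marker genes of neurons were also read from lists. Of 21 tested panneuronal genes 6 rose and 4 fell (47.6%, against the 22.0% called over all genes), with a median of 0.10. The number higher was 5 to 6 with 1 array left out. The RNA-binding protein gene Celf4 and the endosomal gene Nsg1 rose by 3.56 and 2.04 (SE 0.19 and 0.21; 1.21 for Nsg1 with its probe sets averaged), and the synapsin gene Syn1 was 3.83-fold higher with the 2 control values under the limit set to it. Snap25 and Eno2 rose by 1.45 and 0.71, and Elavl2 was 2.88-fold higher with its 1 control value under the limit set to it. Sncg, the gamma-synuclein gene, Scg3, Syp and Reep1 fell (-2.06, -1.999, -0.98 and -0.68). Rbfox3, which encodes the nuclear antigen NeuN, had a change of -0.08 (adjusted p = 0.811). Summed over the 22 named panneuronal genes, the linear signal was 5447 to 6332 in dKO and 5041 to 5828 in control nerves, and Scg2 alone was under the limit on all arrays.

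Several markers of neuron types did not reach the limit. Of 18 sensory genes named here 6 were under the limit on all arrays, among them the transporter gene Slc17a6, the peptide gene Tac1 and the channel genes Scn10a and Scn11a. Of the 11 tested, Ntrk2 rose (0.79, SE 0.17, adjusted p = 0.0126; 0.32 and not called with its 8 probe sets averaged). Calcb did not reach the limit on any control array, and it was higher by at least 1.23-fold (adjusted p = 0.0410), a call lost with any array but dKO 1 left out (up to 0.122). Of 9 motor neuron genes Chat, Slc18a3 and Mnx1, which define cholinergic motor neurons, were under the limit throughout. Of the 5 tested, Slit3, a guidance ligand gene that other cells also express, rose by 1.64 (SE 0.25). Of 7 tested sympathetic genes Ddc rose, 2.92-fold with 1 control value set to the limit (a log2 change of 1.58, or 0.90 with its probe sets averaged), and 3 of the 11 named (Gata3, Phox2a and Slc18a1) were under the limit throughout. The summed signal was 1487 to 1967 in dKO and 1365 to 1957 in control nerves for the sensory list, 611 to 721.1 in dKO and 494.1 to 611 in control nerves for the motor list, and 373 to 390.7 in dKO and 337.2 to 485.2 in control nerves for the sympathetic list. Ntrk3 and Ntrk2 made up most of the sensory sums, and Gfra1 most of the motor sums. These sums follow a few genes and do not measure sensory or motor neuron content.

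Markers of other cell types differed between the same groups as Uchl1, and their part in its rise was not tested. Over all genes 22.0% were called. The share called was 55.6% of the Schwann lineage genes and 50% of the fibroblast and perineurial markers. It was 27.3% of the macrophage, 25% of the adipocyte, 11.1% of the muscle and 10% of the endothelial and pericyte markers. Of 11 macrophage markers 3 rose (Aif1, Tyrobp and C1qa, by 1.06, 0.92 and 0.84). The summed signal was 4286 to 9109 in dKO and 2757 to 3375 in control nerves. The top of the dKO range was the array dKO 3 alone. It had 11.44 for C1qb and 11.4 for Csf1r, against 10.21 and 10.33 on dKO 1 and 10.11 and 10.19 on dKO 2. The Aif1 and Tyrobp calls were lost without some arrays (adjusted p up to 0.0858 and 0.136), control 2 and control 3 among them, which each left 1. Of 10 fibroblast and perineurial markers 5 rose, Cldn1, Itga4, Dcn, Pdgfra and Lum (0.76 to 1.70, the highest being Cldn1, which had 0.83 with its probe sets averaged), and 2 without dKO 2 or control 2, with sums of 49680 to 52220 in dKO and 43440 to 46240 in control nerves. Of 10 endothelial and pericyte markers Rgs5 rose (0.64), a call lost with any array left out (adjusted p up to 0.118), and the sums were 3752 to 4676 in dKO and 2960 to 3553 in control nerves. Of 9 tested muscle markers, with 3 more under the limit throughout, Mylpf rose (0.62), a call lost with any array but dKO 1 left out (up to 0.107), and the sums were 367.4 to 467.6 in dKO and 332.3 to 432.5 in control nerves. Of 4 adipocyte markers Fabp4 rose (2.30, SE 0.39; 1.5004 with its probe sets averaged), with sums of 4665 to 7585 in dKO and 714.4 to 1984 in control nerves, while Adipoq and Lep were under the limit throughout. Fabp4 made up most of these sums, and Pparg, Cidec and Retn were not called (0.06, -0.28 and -0.29). Of 9 Schwann lineage genes Fabp7, Cdh6 and Ngfr rose (1.95, 1.06 and 1.004) and S100b and Erbb3 fell (-1.33 each). Sums over this list, whose genes moved both ways, were 10130 to 11900 in dKO and 13600 to 15610 in control nerves.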

How the data were processed

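RNA of 6 nerve samples, 3 dKO and 3 control, was measured on 1 array each. The deposited table holds log2 expression values, read as such from their range of 1.66 to 14.94, and the submitters' processing notes name GCOS 1.2 and GCRMA, with no order. GCRMA corrects background by probe sequence and gives all arrays nearly the same distribution (sorted values differed by at most 0.01), so that a change shared by all genes could not show. Of 45101 probe sets 34958 had 1 symbol in the platform annotation, 932 several and 9211 none.

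The highest probe set stood for each gene, and 14550 of 18194 genes were tested with limma 3.58.1 in R 4.3.3, without covariates. Members and lists were chosen with earlier results of these data known. Of each of the 16 lists, the called genes with the largest absolute change were named, up to 4, or the 2 with the largest where none was called, with all genes of a count of 5 or fewer, the 2 deleted genes and the 3 profiles most like that of a called member. Vim, Gfap, Rbfox3, Uchl5, Kif1a, Kif3c, Snap25, Eno2, Elavl2 and the markers listed as under the limit were added after their values were seen. On simulated data for this comparison, with 14550 genes and 200 of them changed, the fit called 51% of those changed by 1 and 92% of those changed by 2 on the log2 scale, and 4.67% of the called genes were not changed. Far more genes, 22.0%, were called in the data, which makes the Benjamini-Hochberg cut-off less strict there. With their own SE the tested members needed a change of 0.50 to 0.79 for a call, so the simulated shares do not apply to them. The number of arrays limits the precision. The alternatives were the replicate block, other low-value limits, averaged probe sets, median centring, an intensity trend and leaving out each array.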

Additional observations from a re-analysis of the deposited data

How the results depend on the processing

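Uchl1 remained called under every alternative run, with a change of 0.71 to 0.99 when 1 array was left out and 0.79 with arrays centred on their median. The members called numbered 1 to 2 with 1 array left out (2 without control 2, with Prph) and 1 under the other settings, where a limit of 6 left 5 members tested. Changes near 0 turned in sign when 1 array was left out, and the cause was not tested: Nefm ranged from -0.11 to 0.070, Nefh from -0.063 to 0.34, Ina from -0.21 to 0.15 (0.11 with its probe sets averaged) and Tubb3 from -0.18 to 0.056. Nefl ranged from 0.36 to 0.70 and Prph from 0.35 to 0.81. The Nefl over Nefm ratio differed by 0.43 to 0.71, Nefl over Nefh by 0.18 to 0.51 and Nefm over Nefh by -0.38 to -0.01.

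Over all genes 3198 were called, and 2178 to 2916 with 1 array left out, of which 1246 to 1585 were higher and 891 to 1331 lower, fewer arrays being the construction of these fits. The settings with all arrays called 2557 (replicate block) to 3479. The labels give both groups replicate numbers 1 to 3. Arrays of the same number deviated together at r = 0.04, -0.12 and -0.23 over 14550 genes. Those of different number did so at -0.16 to 0.22. The values show no sign that the numbers pair the samples, but 3 arrays per group cannot exclude a pairing. With the replicate block 1 member was called (Uchl1, adjusted p = 0.0141). Among named list genes, Nes and Krt10 lost their call with the replicate block, and Nes also with no low-value filter. Lmx1b, Calcb, Mylpf, Tyrobp, Rgs5 and Ntrk2 (averaged probe sets) also lost theirs under at least 1 setting with all arrays.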
